A study of Rattus norvegicus with 20 samples.

Results

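The transcripts described here belong to 50 macrophage and leukocyte genes. They were selected on their measured levels: earlier results of these data showed them to be lost when neonatal rat cardiomyocyte cultures were given doxorubicin. Each gene was looked up in the deposited table by its KEGG name (32 genes), else by the gene of its matched protein accession (12 genes), else by its protein description (4 genes). This found 48 genes among the 15503 of the table. Cd4 and Cd163 were not found and are not analysed here. All 48 passed the filter on low counts.

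The series asks about histidine in plasma as a marker of atrial fibrillation that recurs after ablation, and the libraries analysed are poly(A) RNA-seq of cells labelled as neonatal rat cardiomyocytes. The cells were kept for 72 h with PBS, with histidine at 100 nM, with doxorubicin at 1 µM, or with both agents, and each of these 4 groups has 5 libraries. PBS is the vehicle control, and doxorubicin is an anthracycline that intercalates into DNA and poisons topoisomerase II. Beyond neonatal, the labels give no age, and they name no strain, sex or culture, so p-values here reflect no more than the variation among the libraries at hand, which may be technical.

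Macrophages seed the heart before birth and remain there as the main resident leukocyte, where they clear dying cells and debris. Like other leukocytes they carry the phosphatase CD45 and the integrins that share the β2 chain. Many of their receptors have no signalling tail of their own and pair with the adaptors DAP12 (Tyrobp) or FcRγ (Fcer1g), whose immunoreceptor tyrosine-based activation motif (ITAM) is phosphorylated by Src-family kinases such as Lyn and then binds the kinase Syk. From Syk the signal runs through phospholipase Cγ, phosphoinositide 3-kinase and the Vav proteins to Rac and actin. The ETS-family transcription factor PU.1, the product of Spi1, is needed to form macrophages and binds purine-rich sites with a GAGGAA core in the promoters of many of these genes.

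The 250 bases before the annotated start were at hand for 32 of the 48 genes (RefSeq, assembly GRCr8) and were searched on both strands for GAGGAA and for GAGGAAG, which contains it. GAGGAA was found before 21 of the 32 genes (65.6%), before 6379 of 27457 rat genes (23.2%), and before 5 of 27 widely expressed relatives of the 48 genes (18.5%). The longer GAGGAAG was found before 13 (40.6%), 2778 (10.1%) and 2 (7.41%) of the same sets. Base composition differed as well: the median GC content was 50.4% for the 32 genes, 52% for all genes and 69.6% for the relatives, with medians of 3, 6 and 25 CpG dinucleotides. Its part in the motif counts was not tested. A match is a description of the letters, not a shown binding site.

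The 3 matches of GAGGAAG nearest to a start are shown because they put the PU.1 core letters beside genes whose values follow. Each window (GRCr8) holds the 80 bases before the start, 5′ to 3′ on the gene's strand, with the match in capitals. The match ends 9 bases before the start in Slamf9 (chr13:87474247-87474326, plus strand), 16 bases before it in Dock2 (chr10:19748970-19749049, minus strand) and 24 bases before it in Trem2 (chr9:20151780-20151859, minus strand). In Trem2 the motif lies on the other strand and is therefore read as CTTCCTC.
Slamf9: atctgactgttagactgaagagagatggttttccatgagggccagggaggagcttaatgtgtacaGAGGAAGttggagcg
Dock2: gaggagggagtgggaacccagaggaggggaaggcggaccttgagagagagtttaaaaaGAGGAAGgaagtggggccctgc
Trem2: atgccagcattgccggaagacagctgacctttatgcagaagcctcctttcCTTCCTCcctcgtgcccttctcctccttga

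The libraries held 53246205 to 83624651 counts each. Levels are read counts relative to the library total (CPM), scaled by trimmed mean of M values, and levels of different genes are compared only as FPKM, which divides by length. With PBS, the 11 cardiomyocyte markers found made up 0.1 to 0.114% of the counts, 10 fibroblast markers 7.46 to 8.21%, and the 48 genes 0.563 to 0.582%, so the defining markers of the labelled cell type were present but low. Doxorubicin replicate 4 stood apart from the other libraries of its group in all genes together (scaling factor 0.9025 against 1.02 to 1.058), and percentages that it moves by over 1.5 times are also given without it.

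The 48 transcripts were lower with doxorubicin in both arms of the study. Their summed level was 5688, 5699, 5630, 5819 and 5745 CPM in PBS replicates 1 to 5, and 5628, 5529, 6456, 5589 and 5712 CPM with histidine. It was 239, 219, 222, 362 and 264 CPM with doxorubicin and 235 ± 15.5 CPM (SD, n = 5, range 211 to 254) with both agents. The group means leave 4.57% of the PBS level with doxorubicin and 4.06% of the histidine level with both agents. The libraries without the drug and those with it lie far apart, and the highest value with the drug is that of doxorubicin replicate 4. Because the genes were chosen for this loss, it is given as a description and without a test. In bulk RNA, fewer cells of a type and less RNA per cell cannot be told apart.

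In each of the 48 genes, every library with the drug lay below every library without it, in both arms. Among all 15449 genes tested, 17.5% were lower without overlap with doxorubicin against PBS, and 18.7% with both agents against histidine. At an adjusted p of 0.05, 21.5% of all genes were called lower in the PBS arm and 20.3% in the histidine arm. The median log2 fold change of the 48 genes was -6.08 and -6.21 in the 2 arms, against 0.05 and 0.01 over all genes tested. All 48 stayed below 0 under every alternative run.

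How much was left differed from gene to gene but was alike in the 2 arms. The median gene kept 1.48% of its level with doxorubicin and 1.33% with both agents. Under 1% was left of 16 genes with doxorubicin and of 18 with both agents, where 0.57% and 0.667% of all genes tested were that low. Under 5% was left of 44 genes in either arm, where 1.66% of all genes were. Under 10% was left of 46 genes in either arm, where 2.43% and 2.47% of all genes were. In both arms together, 14 genes kept under 1%, 24 kept 1 to 5%, Lyn and Arhgdib kept 5 to 10%, and Fcer1g and Plcg2 kept over 10%. The percentages of the 2 arms lay within 2 times of each other for 41 genes, with a Spearman rank correlation of 0.86 over the 48 genes. The rank correlation between the FPKM with PBS and the percent left with doxorubicin was 0.04 over the same genes, which share the PBS libraries. Both coefficients are given as descriptions.

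**Figure D1:**
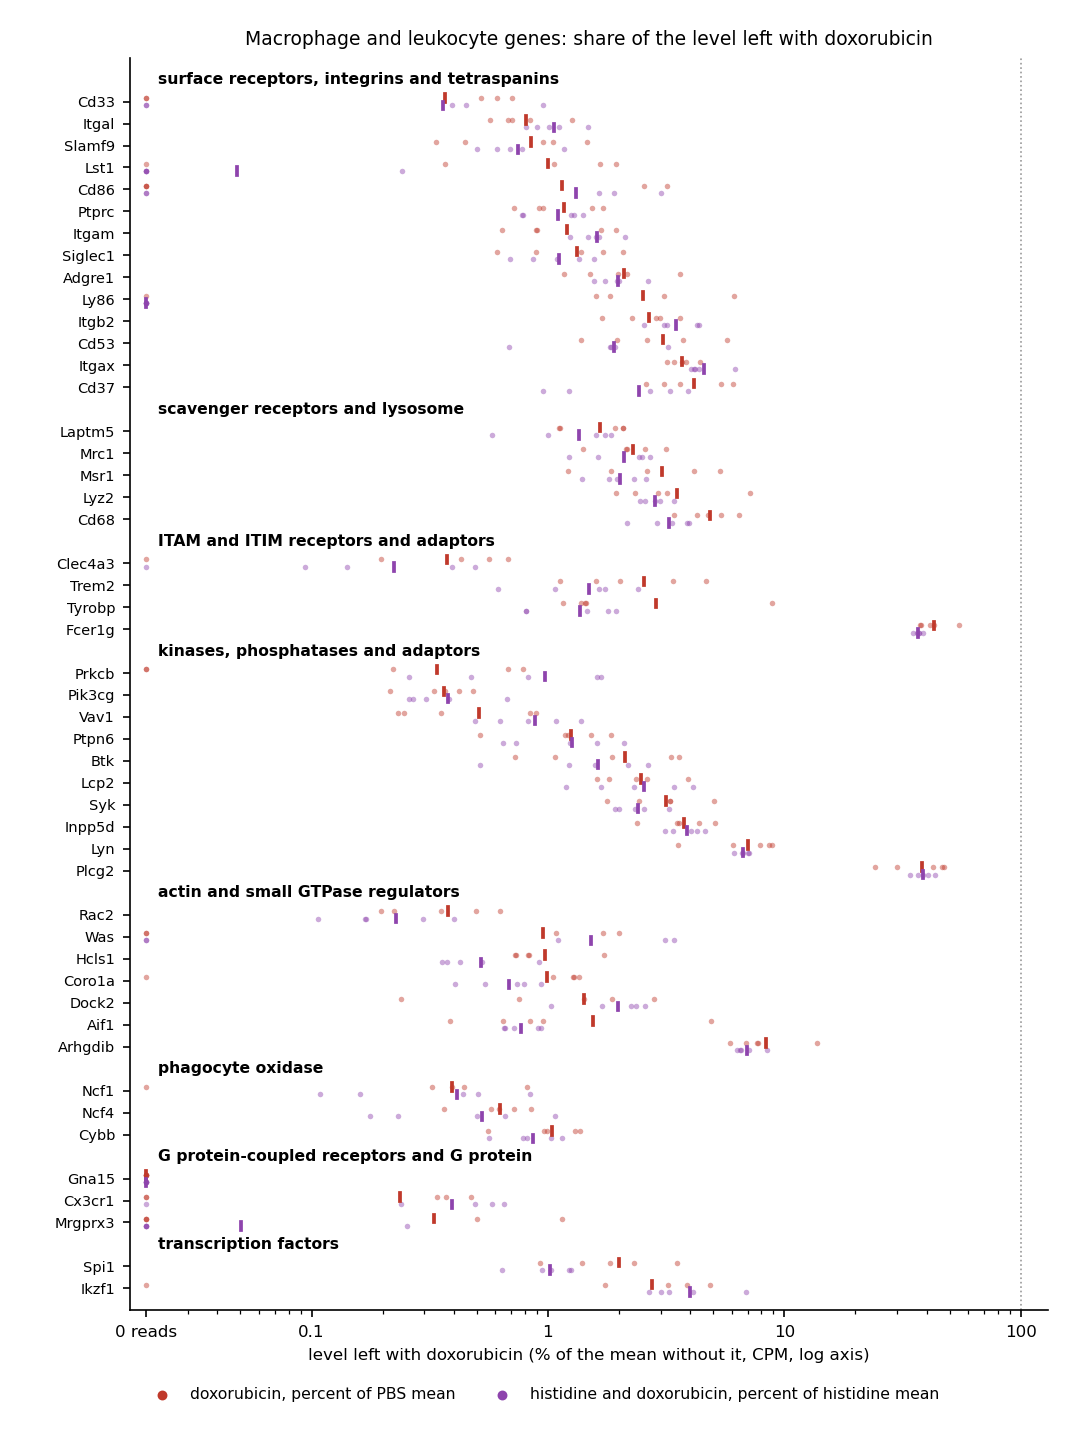
Percent of the mean level without the drug that was left in each library (points) and in the group mean (bars), on a log axis, for the 48 genes by role, with doxorubicin (red) and with both agents (violet). Most bars lie between 0.2 and 5%, and those of Fcer1g and Plcg2 lie between 36.8 and 42.9%.

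Without the drug, the transcripts covered a wide span of levels. Lyz2, the lysozyme of macrophages, was highest with PBS at 538 ± 21.6 FPKM (SD, n = 5, as for all levels below), followed by Adgre1 at 284 ± 20 FPKM and Slamf9 at 171 ± 13.1 FPKM. Fcer1g at 132 ± 22.9 FPKM and Tyrobp at 127 ± 6.95 FPKM did not differ beyond their spread, and Rac2 came next at 113 ± 4.7 FPKM. Aif1 (91.7 ± 2.94 FPKM) and Itgb2 (88.7 ± 2.95 FPKM) also lay within their spread of each other. The lowest were Cd86 at 2.03 ± 0.401 FPKM and Ikzf1 at 1.76 ± 0.245 FPKM, again within their spread. In all, 6 genes lay above 100 FPKM, 24 between 10 and 100, and 18 below 10, with a median of 19.7 FPKM.

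Among the surface receptors, 14 genes kept a median of 1.27% with doxorubicin, from 0.367% (Cd33) to 4.15% (Cd37). Ptprc encodes CD45, the phosphatase that marks all nucleated blood cells (gene ENSRNOG00000000655, mRatBN7.2 chromosome 13, 49596193 to 49708692, minus strand). Its levels in replicates 1 to 5 were 119, 106, 71.3, 80.8 and 112 CPM with PBS, 85.1, 114, 112, 80 and 126 CPM with histidine, 1.68, 0.93, 0.896, 0.702 and 1.5 CPM with doxorubicin, and 1.33, 1.46, 0.811, 1.29 and 0.803 CPM with both. The 2 groups without the drug overlap fully, the 2 with it do too, and no library of the one pair comes near the other. The means were 85.9-fold lower with doxorubicin than with PBS and 90.9-fold lower with both agents than with histidine.

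The β2 integrins are adhesion receptors that leukocytes use to bind vessel walls and opsonised particles. Itgam, the αM chain of complement receptor CR3, was at 150, 158, 155, 143 and 137 CPM with PBS and 139, 130, 176, 127 and 135 CPM with histidine, against 1.33, 2.49, 1.32, 0.954 and 2.88 CPM with doxorubicin and 2.32, 1.75, 2.09, 2.99 and 2.25 CPM with both. It kept 1.21% and 1.61%, with histidine replicate 3 the highest library without the drug. Itgal, the αL chain, kept 0.81% of 229 ± 20.7 CPM with doxorubicin, and Itgax, the αX chain, kept 3.7% of 47 ± 1.56 CPM. The β2 chain they share, Itgb2, kept 2.69% of 306 ± 10.7 CPM, which lies between the values of its α chains.

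Adgre1 encodes the adhesion G protein-coupled receptor known in mouse as the macrophage marker F4/80. It was at 918, 948, 942, 1005 and 982 CPM with PBS and 952, 953, 1268, 939 and 1043 CPM with histidine, then at 20.8, 14.4, 11.2, 34.8 and 19 CPM with doxorubicin and 20.7, 16.1, 18, 27.3 and 20.3 CPM with both. Replicate 4 was the highest library in both groups with the drug, and 2.09% and 1.99% were left. The tetraspanins Cd53 and Cd37, scaffold proteins of leukocyte membranes, kept 3.08% and 4.15% with doxorubicin. Siglec1, the sialic acid receptor of resident macrophages, kept 1.33%, and Slamf9, a receptor of the SLAM family, kept 0.851%.

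Cd33, an inhibitory sialic acid receptor, had 23 reads over all doxorubicin libraries and 20 over those with both agents. Its mean of 18.9 CPM with PBS compares with 0.0692 CPM with doxorubicin (0.367% left). With both agents it was 0.36% of the histidine level, and the 20 reads give a 95% exact Poisson interval of 180- to 454-fold lower. Without replicate 2 of the group given both agents that percentage was 0.211. Cd86, the costimulatory ligand of T cells, was scarce from the outset at 3.5 ± 0.727 CPM with PBS and had 13 reads with doxorubicin (50.8- to 163-fold lower) and 14 with both agents (45.4- to 139-fold lower). Without doxorubicin replicate 3 its percent left was 0.639 in place of 1.15. Such intervals cover counting error only.

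Ly86 and Lst1 are the 2 surface genes whose levels with doxorubicin differed most from those with both agents. Ly86 encodes MD-1, the partner of the receptor RP105 (chromosome 17, 27415830 to 27487260, minus strand, mRatBN7.2). It was at 6.11, 5.98, 4.37, 5.43 and 5.23 CPM with PBS, 5.5, 4.97, 4.22, 5.18 and 5.19 CPM with histidine, and 0.0996, 0, 0.168, 0.331 and 0.0865 CPM with doxorubicin, with no read in any of the 5 libraries given both agents. Lst1, a leukocyte-specific membrane protein of the major histocompatibility region (chromosome 20, 3634749 to 3637997, plus strand), was at 17.5, 16.5, 18.8, 23 and 19.7 CPM with PBS, 18.6, 17.4, 21.9, 20.7 and 17.4 CPM with histidine and 0.316, 0, 0.07, 0.371 and 0.202 CPM with doxorubicin. With both agents Lst1 had 3 reads, all in replicate 5 (0.0463 CPM). In both genes the ranges overlap, because doxorubicin replicate 2 was at 0 too.

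Against histidine alone, Ly86 was at least 553-fold lower with both agents, taking 3 reads over the group as the floor for a count of 0. Lst1 was 2074-fold lower with both agents, with a counting interval of 710 to 10058. With doxorubicin alone, 2.53% of Ly86 (1.63% without replicate 4) and 1% of Lst1 were left.

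The 5 scavenger and lysosomal genes kept a median of 3.05% with doxorubicin and 2.1% with both agents. Lyz2 was at 993, 934, 1008, 1039 and 959 CPM with PBS, 1003, 978, 986, 1053 and 931 CPM with histidine, 31.4, 23.1, 19.1, 70.9 and 28.9 CPM with doxorubicin, and 28, 24.2, 25.5, 33.8 and 29.5 CPM with both. The level of 70.9 CPM in doxorubicin replicate 4 stands above the other 4, and 3.52% was left with that library and 2.6% without it. The deposited protein description of this row is Lysozyme C-1, so it may hold reads of near-identical lysozyme genes. Cd68, a lysosomal glycoprotein used as a macrophage stain, kept the most of the 5, with 4.85% of 78.2 CPM left, and Laptm5, a lysosomal protein of blood cells, kept the least with 1.66% of 183 CPM. Mrc1, the mannose receptor, kept 2.29% of 135 ± 31.6 CPM, and Msr1, the class A scavenger receptor, kept 3.05% of 28.7 ± 5.45 CPM.

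The 4 receptors and adaptors of ITAM and ITIM signalling (an ITIM is the inhibitory counterpart) ranged from 0.374 to 42.9% left with doxorubicin. Tyrobp, the adaptor DAP12, was at 71.4, 70, 76.7, 79.5 and 70.4 CPM with PBS and 78.1, 73.5, 82.6, 79.8 and 73.6 CPM with histidine. It was at 1.06, 1.02, 0.854, 6.56 and 1.07 CPM with doxorubicin and at 1.14, 0.628, 0.624, 1.5 and 1.39 CPM with both agents. Doxorubicin replicate 4 alone lifts the percent left from 1.36 to 2.87, and 1.36% was left with both agents. Trem2, the lipid receptor that signals through DAP12, kept 2.55% with doxorubicin and 1.5% with both. Clec4a3, a C-type lectin receptor, kept 0.374% and 0.224% of 101 CPM.

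Fcer1g, the FcRγ adaptor that serves immunoglobulin receptors, was the exception. It was at 343, 323, 308, 328 and 311 CPM with PBS, 340, 324, 332, 344 and 323 CPM with histidine, 122, 121, 133, 177 and 139 CPM with doxorubicin, and 121, 116, 128, 123 and 124 CPM with both. The groups do not overlap, yet the means were only 2.33-fold and 2.72-fold lower. With PBS, Fcer1g and Tyrobp lay at similar FPKM, whereas with doxorubicin 42.9% of the one and 2.87% of the other were left. Fcer1g made up 5.64 ± 0.244% of the summed CPM of the 48 genes with PBS and 53.5 ± 4.28% with doxorubicin. Without it, the summed level left was 2.28% with doxorubicin (123 ± 37.9 of 5394 ± 69 CPM) and 2.06% with both agents.

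The gene model under the name Fcer1g spans 21995 bases (ENSRNOG00000024159, mRatBN7.2 chromosome 13, 83649449 to 83671443, minus strand) and overlaps other genes. On the same strand it shares 17015 bases with a gene described as NADH dehydrogenase iron-sulfur protein 2, and 6553 with Ppox. It shares 1261 bases with Adamts4 on the opposite strand, in libraries that do not mark strand. The NADH dehydrogenase row, with the largest overlap, was at 0.294 CPM with PBS, with 1296% left with doxorubicin. Ppox, the haem synthesis enzyme protoporphyrinogen oxidase, was at 16.4 CPM with 112% left with doxorubicin, and Adamts4, a matrix protease, at 13.6 CPM with 108% left. How much of the Fcer1g row comes from overlapping genes was not tested. Msr1 overlaps a gene with the name Gnb1 by 1001 bases on the same strand, a row with 88.6% left.

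The 10 kinases, phosphatases and adaptors kept a median of 2.29% with doxorubicin and 2.02% with both agents. Syk, the kinase that docks on phosphorylated ITAMs, was at 44.5, 48, 43.6, 43.3 and 43.8 CPM with PBS and 43.3, 42.1, 41.6, 38.2 and 43.1 CPM with histidine, against 1.08, 2.25, 1.46, 0.795 and 1.47 CPM with doxorubicin and 0.801, 1.06, 1.36, 0.973 and 0.834 CPM with both. It kept 3.16% and 2.41%. Lyn, the Src-family kinase upstream of it, kept 7% of 100 ± 6.82 CPM with doxorubicin and 6.7% with both agents. Its doxorubicin libraries were at 8.84, 6.05, 7.9, 3.56 and 8.64 CPM, with replicate 4 the lowest, the reverse of its place in Lyz2 and Tyrobp.

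Pik3cg, the catalytic phosphoinositide 3-kinase subunit driven by G protein-coupled receptors, was at 176, 183, 190, 186 and 191 CPM with PBS and 171, 172, 240, 151 and 185 CPM with histidine. It was at 0.681, 0.608, 0.896, 0.398 and 0.779 CPM with doxorubicin and at 0.475, 0.562, 0.702, 1.24 and 0.494 CPM with both agents, which is 276-fold and 264-fold lower. With doxorubicin the lowest of the 10 was Prkcb, protein kinase Cβ, with 0.338% of 31.7 CPM left. With both agents 0.969% of Prkcb was left, and Pik3cg was the lowest at 0.379%. Vav1, the Rac exchange factor of blood cells, kept 0.511% of 60.3 CPM, and Ptpn6, the tyrosine phosphatase bound by inhibitory receptors, kept 1.26% of 89.9 CPM. Btk, a Tec-family kinase, kept 2.11%, the adaptor Lcp2 2.47%, and the inositol phosphatase Inpp5d 3.78%.

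Plcg2, the phospholipase Cγ of leukocytes (chromosome 19, 45547416 to 45683930, plus strand, mRatBN7.2), was the second exception. It was at 16, 18.9, 14.8, 17.7 and 16.4 CPM with PBS and 16.5, 15.5, 18.2, 12.6 and 20 CPM with histidine, then at 5.02, 7.17, 7.95, 4.05 and 7.77 CPM with doxorubicin and 6.42, 5.62, 7.22, 6.11 and 6.73 CPM with both. The percent left was 38.2 and 38.8. Replicate 4 was again the lowest of the doxorubicin libraries.

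The 7 regulators of actin and small GTPases kept a median of 0.992% with doxorubicin and 0.773% with both agents. Rac2, the Rac GTPase of blood cells that drives migration and the oxidative burst, was at 154, 164, 164, 162 and 173 CPM with PBS and 166, 94.7, 195, 162 and 158 CPM with histidine. It was at 0.365, 0.322, 0.812, 1.02 and 0.577 CPM with doxorubicin and at 0.624, 0.165, 0.265, 0.458 and 0.262 CPM with both, 264-fold and 437-fold lower. Histidine replicate 2 was low for Rac2 within its group. Dock2, which activates Rac in leukocytes, kept 1.42%, Was, the protein lacking in Wiskott-Aldrich syndrome, 0.957%, Hcls1, the leukocyte relative of cortactin, 0.969%, and Coro1a, an actin-binding coronin, 0.992%.

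Aif1, the calcium-binding macrophage marker also called IBA1, kept 1.55% of 87.6 CPM with doxorubicin. Its 5 doxorubicin libraries were at 0.565, 0.733, 0.336, 4.31 and 0.836 CPM, and without replicate 4 the percentage was 0.705. Arhgdib, a GDP-dissociation inhibitor of small GTPases in blood cells, kept the most of these 7, with 8.37% of 75 CPM with doxorubicin and 6.96% with both agents. Its doxorubicin libraries were at 5.18, 5.78, 4.42, 10.3 and 5.73 CPM, and replicate 4 again stands above the rest.

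The 3 subunits of the phagocyte NADPH oxidase, the enzyme that makes superoxide to kill microbes, kept 0.395 to 1.04% with doxorubicin. Cybb, its membrane-bound catalytic subunit, was at 205, 196, 224, 214 and 217 CPM with PBS, 187, 181, 240, 186 and 219 CPM with histidine, 2.09, 2.04, 1.18, 2.89 and 2.74 CPM with doxorubicin, and 2.09, 1.65, 1.59, 1.14 and 2.32 CPM with both. The cytosolic organiser Ncf1 was 253-fold lower with doxorubicin (0.609 of 154 CPM) and had no read in doxorubicin replicate 4. Ncf4, the other cytosolic subunit measured, kept 0.625% of 46.1 CPM.

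The receptors Cx3cr1 and Mrgprx3 and the G protein subunit Gna15 formed the role group with the lowest medians of the 8. These were 0.237% with doxorubicin and 0.0505% with both agents. Adgre1, also a G protein-coupled receptor, was placed with the surface receptors and kept 2.09% with doxorubicin. Gna15, the α subunit of a promiscuous Gq-class protein in blood cells, was at 11.7, 10.7, 8.61, 8.77 and 10.8 CPM with PBS and 9.64, 12.2, 10.7, 10.5 and 8.17 CPM with histidine. It had no read in any of the 10 libraries with doxorubicin, which is at least 1106-fold lower than PBS and at least 1131-fold lower than histidine, with the floor of 3 reads over each group. Cx3cr1, the fractalkine receptor, was at 39.1, 34.1, 30.1, 33 and 33.5 CPM with PBS, 30.9, 32.9, 21.3, 28.5 and 28.7 CPM with histidine, 0, 0.161, 0.126, 0 and 0.115 CPM with doxorubicin, and 0.0679, 0.165, 0.14, 0.186 and 0 CPM with both. That left 0.237% and 0.393%.

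Mrgprx3, a Mas-related receptor, was found through its protein accession, and its deposited protein description names a Mas-related receptor member A, so it may share reads with close family members. It was at 24.6, 24, 19.3, 23.2 and 23.9 CPM with PBS and 22.6, 23.8, 18.5, 23.9 and 24.5 CPM with histidine. With doxorubicin it had 28 reads, in replicates 4 (0.265 CPM) and 5 (0.115 CPM) only, and with both agents 4 reads, all in replicate 4 (0.0572 CPM). The percent left was 0.331 with doxorubicin, 0.125 without replicate 4, and 0.0505 with both agents (1978-fold lower, counting interval 773 to 7261).

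Both transcription factors kept a few percent or less. Spi1, which encodes PU.1 (chromosome 3, 77073012 to 77092393, plus strand, mRatBN7.2), was at 42.1, 41, 47.4, 44.7 and 43.3 CPM with PBS, 39.9, 50.6, 51.2, 43.5 and 43 CPM with histidine, 0.797, 0.608, 0.406, 1.54 and 1.01 CPM with doxorubicin, and 0.57, 0.43, 0.561, 0.472 and 0.293 CPM with both. It was 50.2-fold lower with doxorubicin and 98.1-fold lower with both agents. Ikzf1, the lymphoid and myeloid zinc finger factor Ikaros, kept 2.74% of 14.9 CPM with doxorubicin and 3.98% with both. In histidine replicate 2 it was at 3.76 CPM, where the other 4 libraries of that group lay between 10.6 and 16.3 CPM.

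**Figure D2:**
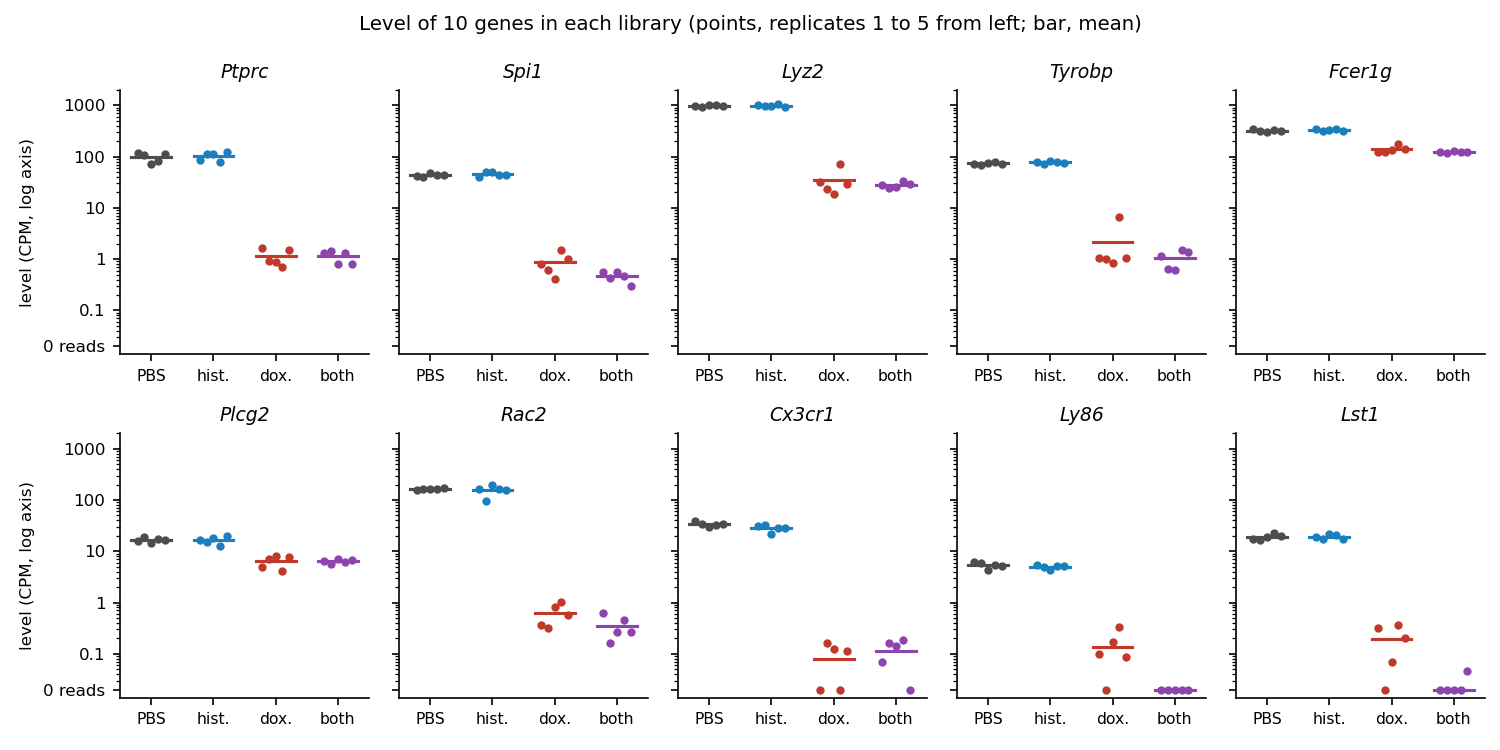
Level in each library (points, CPM on a log axis with 0 reads at the foot) and group mean (bars) of 10 of the genes with PBS, histidine (hist.), doxorubicin (dox.) and both agents. Ptprc and Spi1 lie near 1 CPM with the drug, Fcer1g and Plcg2 stay near 40% of their level, and Ly86 has no read with both agents.

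For histidine at 100 nM alone, no change was called in any of the 48 transcripts. Against PBS, edgeR's quasi-likelihood test with Benjamini-Hochberg adjustment called 0 of the 48 genes and 0% of all genes tested. At an unadjusted p under 0.05, 0 of the 48 and 312 of all genes were found. Of the 48 fold changes, 24 were above 0 and 24 below, with a median log2 of 0.00, and they ran from -0.30 (Ikzf1) to 0.17 (Msr1). The smallest p-values were those of Cx3cr1, at a log2 fold change of -0.25 ± 0.30 (SE), Dock2, at -0.21 ± 0.26, and Ikzf1, at -0.30 ± 0.43, each with an edgeR adjusted p of 1. No gene's groups were without overlap, against 0.841% of all genes.

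The libraries without the drug had some structure of their own. Histidine replicate 3 had the highest summed level (6456 CPM) and was the highest of its group for 23 of the 48 genes, while fibroblast markers made up 5.9% of its counts against 6.65 to 7.85% in the other 4. Replicate 3 of PBS was the lowest of its group for 23 genes. In 6 genes (Cd86, Cd68, Mrc1, Msr1, Cybb and Spi1) replicate 3 was the highest in both groups, and in 5 (Ly86, Trem2, Clec4a3, Cx3cr1 and Mrgprx3) it was the lowest in both. Mrc1 was at 187 CPM in PBS replicate 3 and 246 CPM in histidine replicate 3, where the other 8 libraries lay between 106 and 143 CPM. Trem2 was at 17.5 and 11.5 CPM in the same libraries, where the others lay between 19.1 and 27.2 CPM. The labels do not say what shared numbers mean.

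Histidine together with doxorubicin was then set against doxorubicin alone. This contrast, and the interaction of the 2 agents, use the doxorubicin libraries whose results were known when the genes were chosen. The filter on low counts took in all 4 groups, so genes nearly absent with the drug were tested too. Gna15 had no read in either group of the contrast and could not be called there, and Ly86, Lst1, Mrgprx3, Cd33 and Cd86 had few or none. EdgeR called 0 of the 48 genes and 0% of all genes in the contrast and in the interaction. At an unadjusted p under 0.05 there were 14 of the 48 and 1940 of all genes in the contrast, and 9 and 1060 in the interaction. Of those 14, 11 were lower with both agents and 3 higher (Itgax, Vav1 and Prkcb). The median log2 difference was -0.18, against -0.01 over all genes, and -0.13 without doxorubicin replicate 4. No gene's groups were without overlap, against 1.06% of all genes.

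Ly86 came nearest to the threshold, with a fitted log2 fold change of -6.25 ± 1.06 (edgeR adjusted p = 0.139), a value that depends on the prior count because the group with both agents is at 0. In CPM, Ly86 was at least 15.2-fold lower with both agents than with doxorubicin, and at least 9.83-fold lower without doxorubicin replicate 4. Lst1 had -4.18 ± 0.83 (edgeR adjusted p = 0.167), and was 21.3-fold lower in CPM (counting interval 7.28 to 103). DESeq2, and edgeR without doxorubicin replicate 2, called both genes, with adjusted p-values of 1.34e-05 and 0.00324 for Ly86 and of 0.000913 and 0.0107 for Lst1. Both genes had 0 reads in the library left out. Spi1, at -0.91 ± 0.25 (edgeR adjusted p = 0.393), was lower in mean but overlapped. In the interaction the adjusted p-values were 0.224 for Ly86, 0.372 for Lst1 and 0.631 for Spi1.

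**Figure D3:**
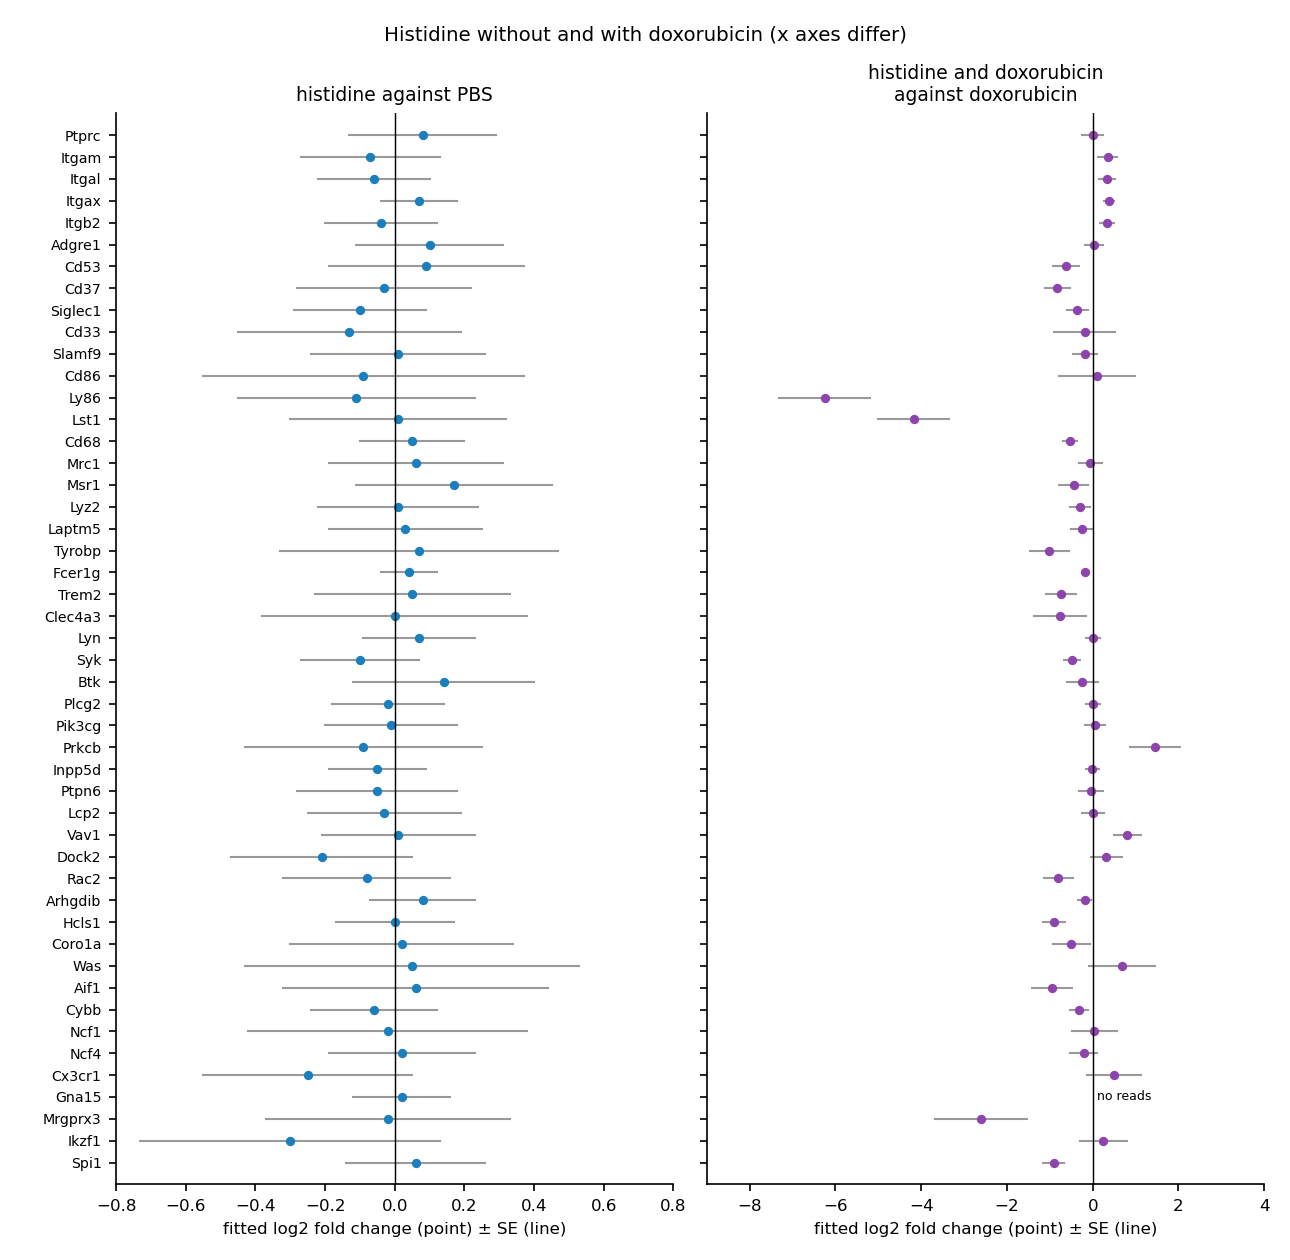
Fitted log2 fold change (points) with its standard error (lines) of the 48 genes, for histidine against PBS on the left and for both agents against doxorubicin on the right, with different x axes. On the left all lie between -0.30 and 0.17, and on the right Ly86 and Lst1 lie lowest at -6.25 and -4.18.

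Many of the 48 genes have a relative with a like function that is expressed in many cell types, and 32 such relatives were in the table. With doxorubicin 10 relatives rose and 8 fell (edgeR, adjusted p under 0.05), with a median log2 fold change of 0.10 against 0.05 over all genes, of which 21.7% rose and 21.5% fell. With both agents against histidine 8 rose and 8 fell, with a median of 0.03, where 19.9% and 20.3% of all genes did. Library totals without further scaling give 12 that rose and 6 that fell in the PBS arm and 10 and 6 in the histidine arm, and leaving out doxorubicin replicates 3 and 4 gives 8 and 10 in the PBS arm. The relatives kept between 36.4% (Pik3cb) and 210% (Bmx) of their PBS level, with a median of 108%. Bmx was scarce, at 0.437 to 0.73 CPM with PBS, and the next highest was Laptm4a at 155%.

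In each pair the leukocyte gene was chosen for its loss with doxorubicin, so the gap to its relative is a description and not a test. Rac2 and Rac1 lay at 113 and 96.4 FPKM with PBS, and 0.379% of Rac2 but 86.6% of Rac1 was left with doxorubicin (Rac1 log2 fold change -0.21 ± 0.05, edgeR adjusted p = 0.00447, and 0.0522 with library totals). Of the β integrin chains, 2.69% of Itgb2 and 67.1% of Itgb1, the chain used by most adherent cells, was left. Cttn (cortactin) rose to 138% (log2 0.46 ± 0.05, edgeR adjusted p = 3.58e-07), while its leukocyte counterpart Hcls1 was at 0.969%. The focal adhesion kinase Ptk2 rose to 152%, against 3.16% for Syk, and the lysosomal proteins Lamp1 and Laptm4a rose to 144% and 155%, against 4.85% for Cd68 and 1.66% for Laptm5.

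Among the enzymes of the pathway, Plcg1 rose to 129% while Plcg2 was at 38.2%, and Pik3cb, which fell to 36.4%, lay closest to the leukocyte genes, against 0.363% for its relative Pik3cg. The kinases Src, Fyn and Yes1 were at 122%, 112% and 124%, against 7% for Lyn, and the protein kinase C isoform Prkca at 120%, against 0.338% for Prkcb. The Gq-class subunits Gnaq and Gna11 were at 104% and 118%, against 0 reads for Gna15. Ets1, a widely expressed ETS factor, fell to 66.4% (log2 -0.59 ± 0.11, edgeR adjusted p = 0.000151), against 1.99% for Spi1. Aif1l, the close relative of Aif1, fell to 38.6%.

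**Figure D4:**
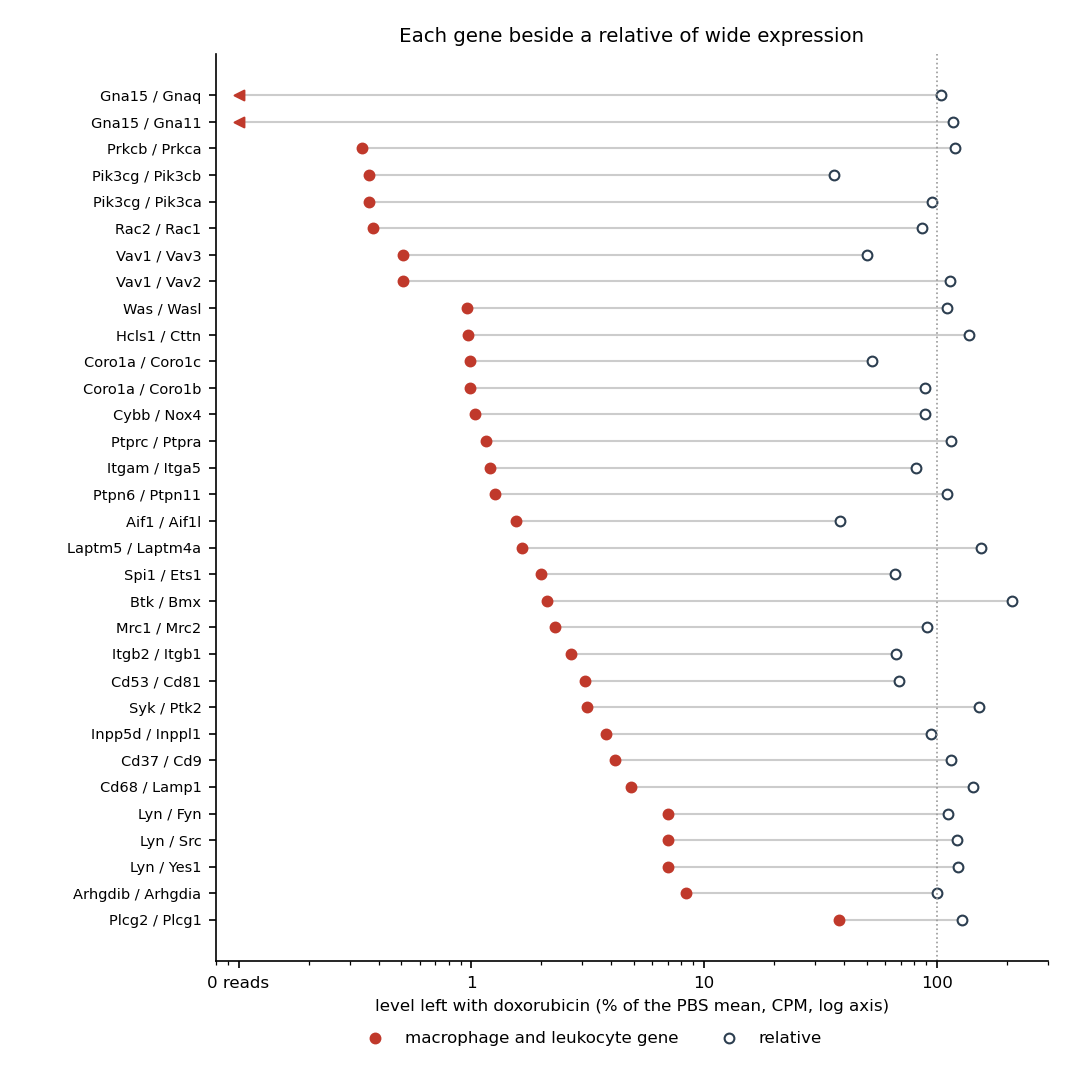
Percent of the PBS level left with doxorubicin (log axis) for each leukocyte gene (filled red) and a widely expressed relative (open), joined by a line. Open circles lie between 36.4 and 210%, the highest being Bmx at 0.437 to 0.73 CPM with PBS, and all filled symbols but Plcg2 lie below 10%. The leukocyte genes were chosen for this loss.

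A further 22 genes of ITAM signalling, listed with earlier results of these data known, were tested in the same fits. With doxorubicin 21 of 22 fell (edgeR), where 21.5% of all genes fell, with a median log2 of -4.22 against 0.05 over all genes. With both agents against histidine 21 of 22 fell, where 20.3% of all genes fell, with a median of -4.35. The exceptions were the adaptor Grb2 in the PBS arm (-0.20 ± 0.08, edgeR adjusted p = 0.0555) and the paracaspase Malt1 in the histidine arm (-0.09, edgeR adjusted p = 0.65). Their percent left split widely: 12 genes were under 10% and 9 above 20% with doxorubicin. The fungal lectin receptor Clec7a fell to 1% (log2 -6.56 ± 0.55), the adaptor Fyb1 to 1.06% and the immunoglobulin receptor Fcgr1a to 1.29%. The kinase subunit Pik3cd fell only to 57.1%, and the adaptors Gab2, Skap2 and Bcl10 to 56.3%, 55.9% and 74.8%.

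Markers of resident macrophages, also listed with earlier results known, were mostly lower. Of 13, 11 fell in either arm (edgeR), with medians of -3.60 and -4.69. Among all genes tested, 21.5% and 20.3% fell in the 2 arms, and 21.7% and 19.9% rose. C1qa, C1qb and C1qc, which form the first component of complement and are made mainly by macrophages, fell to 0.837%, 0.506% and 0.931% with doxorubicin. Folr2, the folate receptor of resident macrophages, fell to 0.969%. These 4 were the lowest of the list, whose median was 7.84% left, with over 20% left of 5 of the 13. Cbr2 fell from 21.6 to 26 CPM with PBS to 15.7 to 24.9 CPM with doxorubicin. Maf fell from 43.7 to 49.5 CPM to 13 to 15.6 CPM, and Mertk from 5.85 to 8.35 CPM to 0.814 to 2.09 CPM. Of the 13, 2 rose: Gas6, a bridging ligand for dying cells, to 234% (log2 1.23 ± 0.07, edgeR adjusted p = 4.61e-11), and its receptor Axl to 128% (edgeR adjusted p = 0.038). Both are also made by other cells of the heart, and the call of Axl was lost without doxorubicin replicates 3 and 4 (edgeR adjusted p = 0.118) and without any of PBS replicates 2 and 4 or doxorubicin replicates 1, 2 and 3 (up to 0.102). Of 5 monocyte and inflammatory macrophage markers tested, Gpnmb (-1.53) and Spp1 (-0.56) fell and Fn1 (0.55) and Vcan (0.59) rose with doxorubicin, of which the last 2 are matrix genes of many cells. The call of Spp1 was lost when any of the 10 libraries but doxorubicin replicate 3 was left out (edgeR adjusted p up to 0.0989). That replicate was at 1018 CPM for Spp1, against 360 to 435 CPM in the rest of its group. Without it the edgeR adjusted p for the fall of Spp1 was 1.23e-06. The call of Vcan was lost when replicates 2 or 3 of doxorubicin, or 2 or 5 of PBS, were left out (largest value 0.122).

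Of the markers of other leukocytes listed, few were in the table. Their calls stand beside 21.5% of all genes that fell with doxorubicin and 21.7% that rose. Of 15 T and natural killer cell markers 2 were in the table, Lck at 1.74 ± 0.426 CPM and Cd247 at 0.227 CPM with PBS, and Lck fell with doxorubicin (-2.37). Of 9 B and plasma cell markers 2 were found, Cd79b at 0.971 CPM and Jchain at 0.355 CPM, and Cd79b had 0 reads with doxorubicin, at least 106-fold lower. Of 10 mast cell and basophil markers 3 were found, among them Kit at 1.14 CPM, and only Gata2 was called, higher with doxorubicin (log2 0.54, edgeR adjusted p = 0.0364), a call that ended when replicates 3, 4 or 5 of doxorubicin, or 1 or 2 of PBS, were left out (largest value 0.0959). Of 9 neutrophil markers 4 were found, of which 1 fell and 1 rose with doxorubicin. Csf3r, a receptor that monocytes share, fell to 0.958% of 12.9 CPM, and the granule gene Ngp rose from 0.0246 to 0.296 CPM (log2 3.55 ± 1.00, edgeR adjusted p = 0.00747, and 0.0526 without doxorubicin replicates 3 and 4). Of 7 osteoclast markers 4 were found, of which 2 fell and 1 rose. Oscar, a collagen receptor that uses FcRγ, fell to 6.38% of 5.71 CPM and the phosphatase Acp5 to 66.4% of 12.4 CPM, while the protease Ctsk rose to 166% of 47.3 CPM (log2 0.73 ± 0.14, edgeR adjusted p = 0.000384). Nfatc1 was at 24.4 CPM with 95.6% left.

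Markers of other cell types of the culture were tested beside these, where 21.5% of all genes fell and 21.7% rose, and their part in the values above was not tested. Of 11 cardiomyocyte markers 10 fell with doxorubicin, with a median of -2.30, and 20.4% of the level of the median marker was left. Their summed level ran from 1002 to 1140 CPM with PBS and from 173 to 283 CPM with doxorubicin, highest in replicate 4. Of 10 fibroblast markers 4 fell and 2 rose (median -0.27), of 8 endothelial markers 5 fell and 2 rose (-1.98), and 7 of the 8 markers of pericytes and smooth muscle fell (-0.79). Among genes of at least 1 CPM with PBS, the median percent left was 1.48 for the 48 genes. It was 5.44 for other ITAM signalling genes, 7.13 for 12 resident macrophage markers and 146 for 5 monocyte and inflammatory macrophage markers. For those 5 the arms differed, with a median of 42 with both agents against histidine. Of the 5, Nos2 was at 80 CPM in doxorubicin replicate 3 and at 1.72 to 6.1 CPM in the rest of that group. With doxorubicin against PBS, the median was 20.4 for cardiomyocyte markers, 24.6 for endothelial markers, 58.2 for smooth muscle and pericyte markers, and 83 for fibroblast markers.

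**Figure D5:**
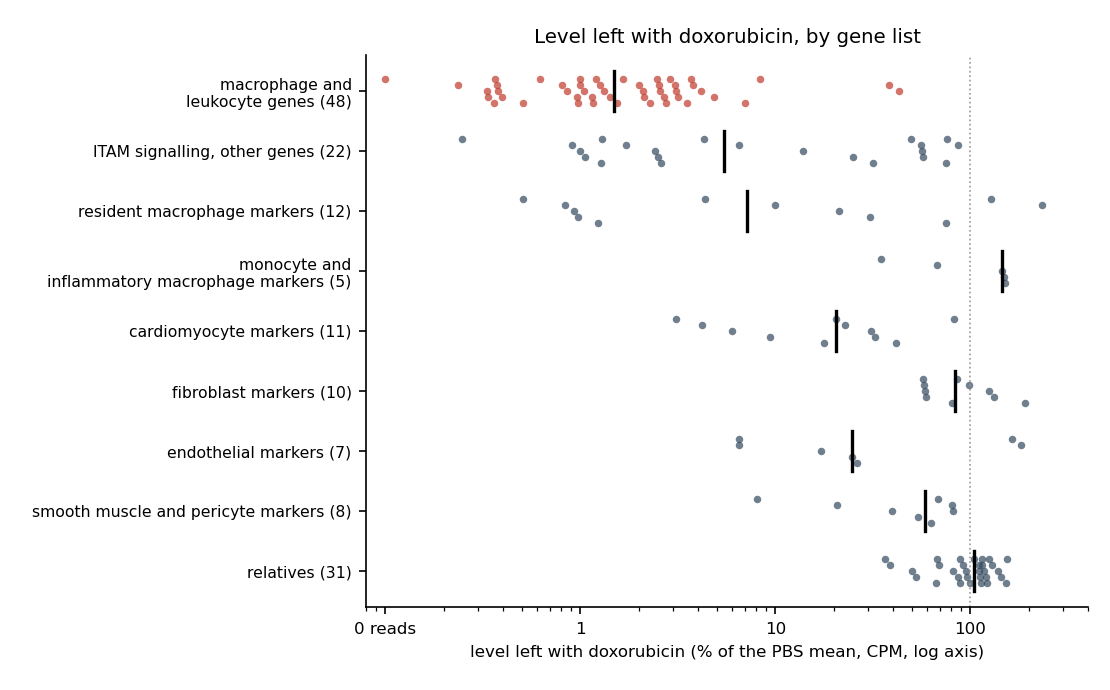
Percent of the PBS level left with doxorubicin (log axis) for each gene of at least 1 CPM (points) and the median (bars) of 9 gene lists, with the number of genes in brackets. The median is 1.48% for the macrophage and leukocyte genes, 5.44% for other ITAM signalling genes, 20.4% for cardiomyocyte markers and 104% for the relatives. It is 7.13% for resident macrophage markers and 146% for monocyte and inflammatory macrophage markers. For the latter, the median with both agents was 42% of the histidine level (not drawn).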

How the data were processed

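The deposited table holds raw read counts and FPKM values per gene for 20 libraries, per the file headers. The authors trimmed reads with Trimmomatic and used the genome build mRatBN7.2, per the submitters' processing notes. Which aligner, counter and annotation were used is not stated in the labels, headers or notes, and the library protocol in the labels does not mark strand. No column of values was left without a sample (0).

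The counts as deposited were scaled by trimmed mean of M values, filtered with filterByExpr (15449 of 15503 genes kept) and tested with edgeR's quasi-likelihood test (edgeR 4.0.16, limma 3.58.1, R 4.3.3) in 1 fit of the 4 groups, with Benjamini-Hochberg adjustment over all genes and a threshold of 0.05. A standard error is the fold change divided by the square root of F. Percent left is the ratio of group mean CPM. Values from the FPKM column, as the authors deposited it, compare levels of different genes only. A group at 0 was set to a floor of 3 reads for a fold, and counts of up to 20 reads carry a 95% exact Poisson interval. The scripts were tested on simulated data.

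The genes and lists were chosen with earlier results of these data known, so both contrasts of the drug are descriptions for the 48 genes. Genes given with values are, in each of 8 role groups, those with the lowest and the highest percent left and the highest FPKM, 7 fixed genes (Ptprc, Itgam, Cd68, Spi1, Tyrobp, Syk and Mrgprx3) and the 3 with the smallest p in each tested contrast. Other genes named were chosen after their values were seen.

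Alternatives were DESeq2 1.42.0, no filter, library totals, a replicate block, only the groups compared, limma on log2(FPKM + 0.1) or log2(FPKM + 1), and each library left out. Leaving out doxorubicin replicates 3 and 4 together was chosen after seeing the data.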

Additional observations from a re-analysis of the deposited data

Results flagged for a closer look

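In groups of 5 libraries, 109 groups of values were checked for a highest or lowest library that stood apart from the other 4, and 9 were found. Chance alone marks about 1 group in 20. The summed level of the 48 genes was 6456 CPM in histidine replicate 3, where the other 4 libraries lay between 5529 and 5712 CPM, and Itgam was at 176 CPM in the same library against 127 to 139 CPM. Doxorubicin replicate 4 stood above its group for Lyz2 (70.9 CPM against 19.1 to 31.4), Arhgdib (10.3 CPM against 4.42 to 5.78) and Tyrobp (6.56 CPM against 0.854 to 1.07). Syk was at 48 CPM in PBS replicate 2 against 43.3 to 44.5 CPM, and Mrgprx3 at 19.3 CPM in PBS replicate 3 against 23.2 to 24.6 CPM. With both agents, Mrgprx3 had reads in replicate 4 alone (0.0572 CPM) and Lst1 in replicate 5 alone (0.0463 CPM). In both cases the other 4 libraries were at 0, so any read stands apart and these flags cannot be compared with that rate.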

How the results depend on the processing

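Histidine against PBS gave 0 of the 48 genes under every alternative. Both agents against doxorubicin gave 2 (Ly86 and Lst1) with DESeq2, where 22 of all genes were called, and 2 without doxorubicin replicate 2, where 6 of all genes were; leaving out each library in turn gave 0 to 2. The interaction gave the same 2 genes with DESeq2 (adjusted p of 9.68e-05 and 0.00197) and 2 without doxorubicin replicate 2 (0.0125 and 0.0334), again 0 to 2 over the libraries left out. The labels do not say that replicate numbers pair libraries; of 30 correlations between same-numbered libraries 2 were above 0.1 (range -0.0766 to 0.193), and the same number was the best match in 12 of 30, not in all. With the replicate number as a block, edgeR called 0 of the 48 in all 3 contrasts, with smallest adjusted p-values of 0.204 for both agents against doxorubicin and 0.435 for the interaction. The median log2 fold change of the 48 genes with the drug was -5.44 and -5.60 in the 2 arms with limma on log2(FPKM + 0.1), with or without a filter, and -3.77 and -3.91 on log2(FPKM + 1), where the pseudocount shrinks low levels by construction; it ran from -6.13 to -5.90 and from -6.34 to -6.19 without single libraries. Of 10 fibroblast markers, 3 were called with both agents against histidine, and 5 with the replicate block, with library totals, and without doxorubicin replicates 3 and 4; the cause was not tested. The block changed no other call of a list by over 1.5 times. Of the values graded under alternatives, 1062 kept their side and size, 95 moved and 8 came past the threshold. Signs did change among the 48 genes for histidine against PBS, where 24 were above 0 with the main settings and 30 with library totals. Depth limits Gna15, Ly86, Lst1, Mrgprx3, Cd33 and Cd86, which had few or no reads with the drug.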
